A study of Rattus norvegicus with 6 samples.

Results

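The 6 genes described here are protease inhibitors of the extracellular matrix, the 4 tissue inhibitors of metalloproteinases (Timp1, Timp2, Timp3 and Timp4) with Reck and A2m. They were picked by gene name from a table of 30562 rat genes, and 6 of 6 had enough reads to enter the test, which covered 15537 genes. Bulk RNA was read from tail discs of wild-type male Sprague-Dawley rats whose Co6–Co7 disc had been punctured with a needle at 12 weeks of age. The control group received PBS and the other group AF-PTK@LEV@SPP1, a vesicle bearing a peptide that binds the annulus fibrosus and carrying an siRNA described as directed at mouse Spp1 (10 μL per injection, with 1 mg/kg of siRNA). By the study's methods the first injection followed surgery by 24 h, treatment ran for 8 weeks, and each group had 3 animals. The sample records differ from this account, since they give an untreated control, a duration of 14 days and macrophages sorted from discs of mice. Both groups carry the genotype WT and the source intervertebral disc in these records, and sex, age and puncture are given in the methods alone.

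Matrix metalloproteinases (MMPs) and their relatives, the ADAM and ADAMTS proteinases, cut collagens, aggrecan and cell surface proteins, and their activity in the degenerating disc is held in check by inhibitors made in the same tissue. The TIMPs are small secreted proteins that bind the active site of a metalloproteinase, Reck is an inhibitor anchored in the cell membrane, and A2m (alpha-2-macroglobulin) is a large secreted protein that traps proteinases of many classes. TIMPs differ in their partners. Timp2 also takes part in the activation of pro-MMP2 by MMP14, and Timp3 stays bound to the matrix and inhibits ADAM17 and the aggrecanases of the ADAMTS group.

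Depth was 17942989, 16565291 and 17489851 counts in PBS, and the 3 AF-PTK@LEV@SPP1-labelled libraries had 17074981, 15560728 and 17855184. Levels are given as normalized CPM, reads of a gene scaled to a common library total (TMM factors of edgeR), and at this depth 3 counts correspond to 0.154 to 0.193 CPM. PBS replicates 2 and 3 were very close to each other. Their counts varied 1.33 times as much as counting alone would give, and 16 of 14393 genes (0.111%) differed, while the ratio was 54.8 to 109 for the other pairs within a group. They were therefore summed and counted as 1 sample, so that PBS had n = 2 distinct samples and the AF-PTK@LEV@SPP1-labelled group n = 3. An exact permutation test, two-sided, cannot give a p below 0.100 with these numbers. Differences are log2 fold changes of the AF-PTK@LEV@SPP1-labelled group over PBS from edgeR's quasi-likelihood test, and a gene is called where p, adjusted by Benjamini-Hochberg over all genes tested, is under 0.05.

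Spp1, the target of the siRNA, was not lower in the AF-PTK@LEV@SPP1-labelled libraries. It had 8123, 4411 and 4417 normalized CPM in PBS libraries 1, 2 and 3, and 8054, 6903 and 8461 in replicates 1, 2 and 3 of the other group. PBS replicate 1 lay among the AF-PTK@LEV@SPP1-labelled libraries, and the groups overlapped (log2 fold change 0.31 ± 0.37 SE, edgeR's adjusted p = 0.628). The log2 fold change was 0.81 without PBS replicate 1. With PBS replicates 2 and 3 left out, an alternative chosen after seeing the data, it was -0.07. Directions below are therefore relative to the labels of the libraries.

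Of the 6 inhibitors, Timp1 alone was called, and it was lower in the AF-PTK@LEV@SPP1-labelled libraries. Across all genes tested 575 of 15537 were called (3.7%), of which 400 (2.57%) were lower and 175 (1.13%) higher. These calls rest on few samples: edgeR called 280 genes without PBS replicate 1, where the summed pair alone stood for PBS and was assumed to vary like the other group, 113 without AF-PTK@LEV@SPP1-labelled replicate 1, and 0 without replicate 2 or replicate 3 of that group (3109 and 2699 at an unadjusted p under 0.05). With the PBS pair left out, chosen after seeing the data, it called 3 under the same assumption for PBS replicate 1, and these limits hold for each call given below. The libraries of the groups did not overlap for 5 of the 6 inhibitors, a state that 41.9% of all genes tested shared, so that such separation was common among genes at large. By direction, Timp1, Timp2 and A2m lay lower in every AF-PTK@LEV@SPP1-labelled library than in every PBS library, Timp4 and Reck lay higher, and Timp3 overlapped. With the near-identical PBS pair kept as separate samples, edgeR called 5 of the 6 inhibitors (each but Timp3) and 2727 of 15042 genes (18.1%). DESeq2, with the pair summed, called the same 5 (adjusted p = 0.0067 for Timp2, 0.00395 for Timp4, 0.0091 for Reck and 0.00231 for A2m) and 2572 genes, so the calls of these 4 differ by tool as well as by the use of the pair.

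Timp1, the inhibitor among these that is best known to be induced by cytokines, lies on chromosome X from 1212972 to 1217664 on the minus strand in the deposited annotation, whose rat build is not given in the sources used here. It had 9764, 8556 and 9112 reads in PBS libraries 1, 2 and 3, and 1232, 930 and 1418 reads in the AF-PTK@LEV@SPP1-labelled libraries. In normalized CPM these are 502, 550 and 556 in PBS and 72.4, 56.1 and 80.8 in the other group. The PBS libraries were close to each other, and even the highest library labelled AF-PTK@LEV@SPP1 was 6.21-fold below the lowest of them. The mean fell from 527 ± 36.7 (SD, n = 2 distinct samples) to 69.8 ± 12.6 (SD, n = 3), a 7.60-fold lower level by the fit. Its log2 fold change was -2.93 (standard error 0.20, 95% interval -3.42 to -2.43, adjusted p = 0.0119 from edgeR), and the exact permutation test gave the smallest p that 3 samples against 2 allow, 0.100. By p it ranked 20 among the 15537 genes, and 112 genes had a lower log2 fold change. The call needed the AF-PTK@LEV@SPP1-labelled libraries 2 and 3: without replicate 2 of this group edgeR's adjusted p was 0.0645, without replicate 3 it was 0.130, and with the PBS pair left out, an alternative chosen after seeing the data, it was 0.0751, while the log2 fold change stayed between -3.04 and -2.79.

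Timp2, on chromosome 10 from 103531505 to 103590611 on the minus strand, had 703, 1179 and 1176 normalized CPM in PBS libraries 1, 2 and 3 and 533, 339 and 420 in the AF-PTK@LEV@SPP1-labelled libraries. The groups did not overlap, but PBS replicate 1 lay nearer to the other group than to the PBS pair, 1.32-fold above its highest library. Means were 940 ± 335 (SD, n = 2 distinct samples) and 431 ± 97.3 (SD, n = 3). The log2 fold change of -1.14 (standard error 0.31, 95% interval -1.92 to -0.36) was not called by edgeR (adjusted p = 0.107), and it passed with the 6 libraries kept (adjusted p = 0.0277). This log2 fold change was -1.47 without PBS replicate 1. With the PBS pair left out, an alternative chosen after seeing the data, it was -0.71.

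Timp3, on chromosome 7 from 17521919 to 17571839 on the minus strand, had 322, 510 and 518 normalized CPM in PBS libraries 1, 2 and 3 and 541, 309 and 328 in the AF-PTK@LEV@SPP1-labelled libraries. The highest library was thus replicate 1 of the AF-PTK@LEV@SPP1-labelled group, and the lowest was replicate 2 of the same group. Both groups spanned about the same range, with means of 418 ± 136 (SD, n = 2 distinct samples) and 393 ± 129 (SD, n = 3). The log2 fold change was -0.10 with a 95% interval from -0.97 to 0.77 (adjusted p = 0.881 from edgeR). A change of either sign within this interval remains possible with these samples. Its sign turned without replicate 2 or replicate 3 of the AF-PTK@LEV@SPP1-labelled group (0.05 and 0.02) and with the PBS pair left out (0.28).

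Timp4, a TIMP with a narrow range of tissues in which it is abundant, lies on chromosome 4 from 148304490 to 148312558 on the minus strand. It was counted with 105, 27 and 32 reads in PBS libraries 1, 2 and 3 and with 313, 347 and 166 reads in the AF-PTK@LEV@SPP1-labelled libraries. These are 5.39, 1.74 and 1.95 normalized CPM in PBS, against 18.4, 20.9 and 9.46. Timp4 had the largest spread of the 6 inhibitors between the distinct PBS samples, which differed 2.92-fold, and replicate 3 of the other group was 1.75-fold above PBS replicate 1. The log2 fold change was 2.18 (standard error 0.59, 95% interval 0.68 to 3.68), with means of 3.62 ± 2.51 (SD, n = 2 distinct samples) and 16.3 ± 6.03 (SD, n = 3), and edgeR's adjusted p was 0.108. It passed with the 6 libraries kept (adjusted p = 0.0292 from edgeR). The two-sided exact permutation test gave p = 0.2. PBS replicate 1 moved the size most: without it the log2 fold change was 3.12, and with the PBS pair left out it was 1.58 (edgeR's adjusted p = 0.0920 and 0.296).

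Reck, on chromosome 5 from 58102981 to 58169502 on the plus strand, had 107, 157 and 167 normalized CPM in PBS libraries 1, 2 and 3 and 222, 241 and 270 in the AF-PTK@LEV@SPP1-labelled libraries. All 3 of the latter lay above all PBS libraries, the lowest of them 1.33-fold above PBS replicate 3. Means were 135 ± 38.7 (SD, n = 2 distinct samples) and 244 ± 24.2 (SD, n = 3), a 1.80-fold difference by the fit. The log2 fold change of 0.85 (standard error 0.22, 95% interval 0.29 to 1.41) missed the threshold in edgeR (adjusted p = 0.101), and it passed with the 6 libraries kept (adjusted p = 0.0393).

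A2m, on chromosome 4 from 154897877 to 154947786 on the plus strand, is a strong acute-phase protein of the rat. Its level was nearly the same in the 3 PBS libraries, at 87.8, 89.1 and 91.6 normalized CPM, and was 24.5, 36.7 and 11.0 in the AF-PTK@LEV@SPP1-labelled libraries. The latter differed among themselves by up to 3.34-fold, more than for any of the other 5 inhibitors, and the highest of them was 2.39-fold below the lowest PBS library. With means of 89.1 ± 1.80 (SD, n = 2 distinct samples) and 24.1 ± 12.9 (SD, n = 3), the log2 fold change was -1.90 (standard error 0.47, 95% interval -3.09 to -0.70). It did not pass in edgeR with the pair summed (adjusted p = 0.0917) and passed with the 6 libraries kept (adjusted p = 0.0266). For Timp1, Timp2, Reck and A2m alike the exact permutation test gave p = 0.100.

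**Figure D1:**
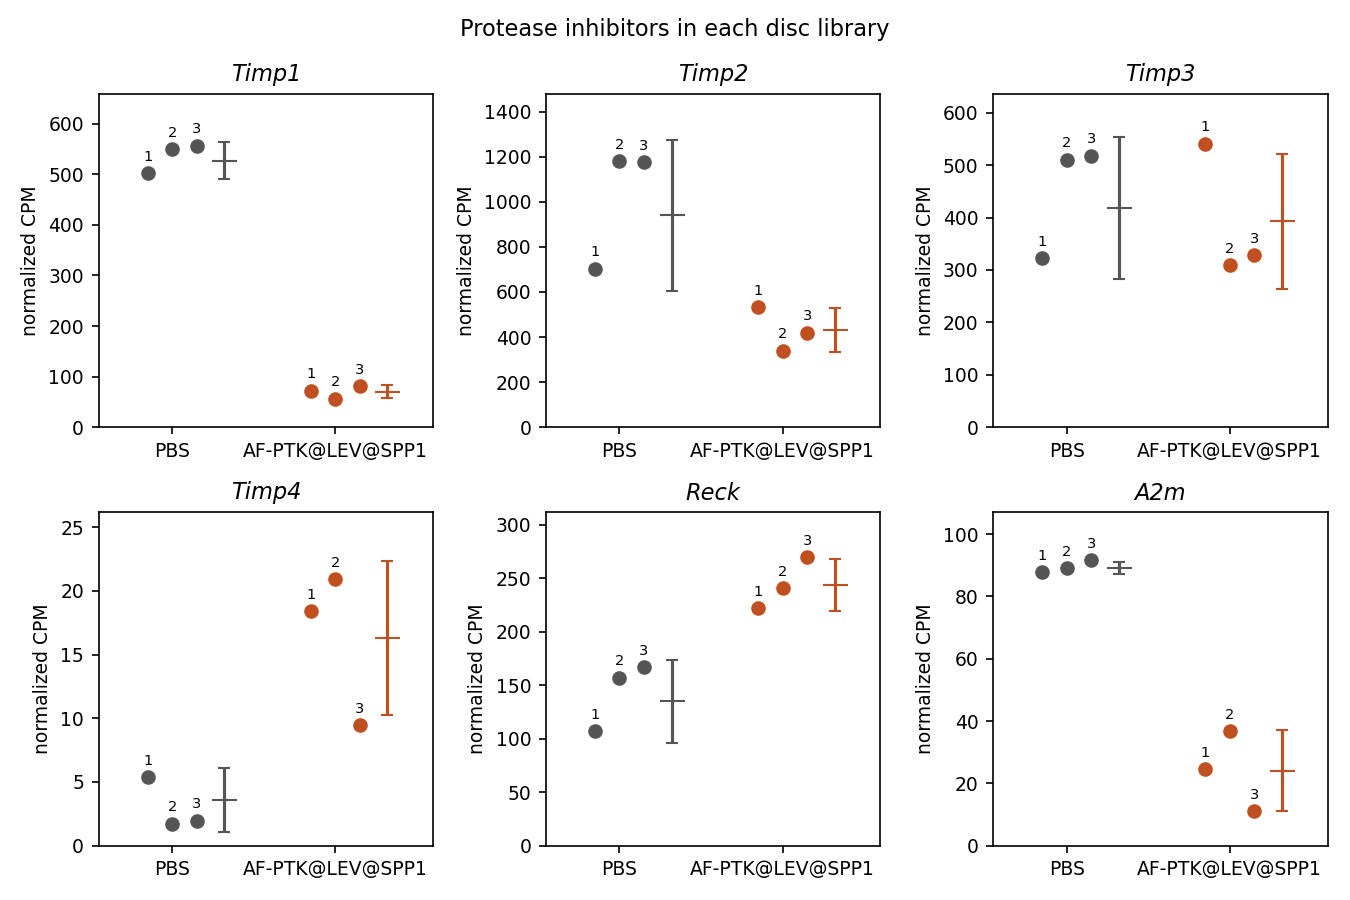
Normalized CPM (vertical axis, linear from 0) of the 6 inhibitors in 3 PBS and 3 AF-PTK@LEV@SPP1-labelled libraries, each point a library marked with its replicate number, with the mean and SD over the distinct samples (n = 2 and n = 3) beside them. The groups lie apart for Timp1, Timp2, Timp4, Reck and A2m, with the widest gap for Timp1 (6.21-fold), and overlap for Timp3.

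The TIMP genes together had 1532, 2241 and 2252 normalized CPM in PBS libraries 1, 2 and 3, and 1165, 726 and 839 in the AF-PTK@LEV@SPP1-labelled libraries. Timp1 held 32.7%, 24.6% and 24.7% of the reads on the 4 TIMP genes in PBS and 6.22%, 7.73% and 9.63% in the AF-PTK@LEV@SPP1-labelled libraries. These shares did not overlap between the groups, and their 95% Wilson intervals reached at most 0.533 percentage points to either side. Timp3 took a larger part in the latter, with 21.0%, 22.7% and 23.0% of TIMP reads in PBS and 46.4%, 42.6% and 39.1% in the other group, although its own level did not separate the groups. Timp2 kept 45.9% to 52.6% of the TIMP reads in PBS and 45.8% to 50.1% in the AF-PTK@LEV@SPP1-labelled libraries. Timp4 stayed a small part, with at most 0.352% in PBS and 2.88% in the other group. Shares are of reads without correction for gene length, which the table does not give, so they compare libraries and not the amounts of the 4 transcripts. Intervals and floors cover counting error alone, as reads copied by PCR are not independent molecules.

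**Figure D2:**
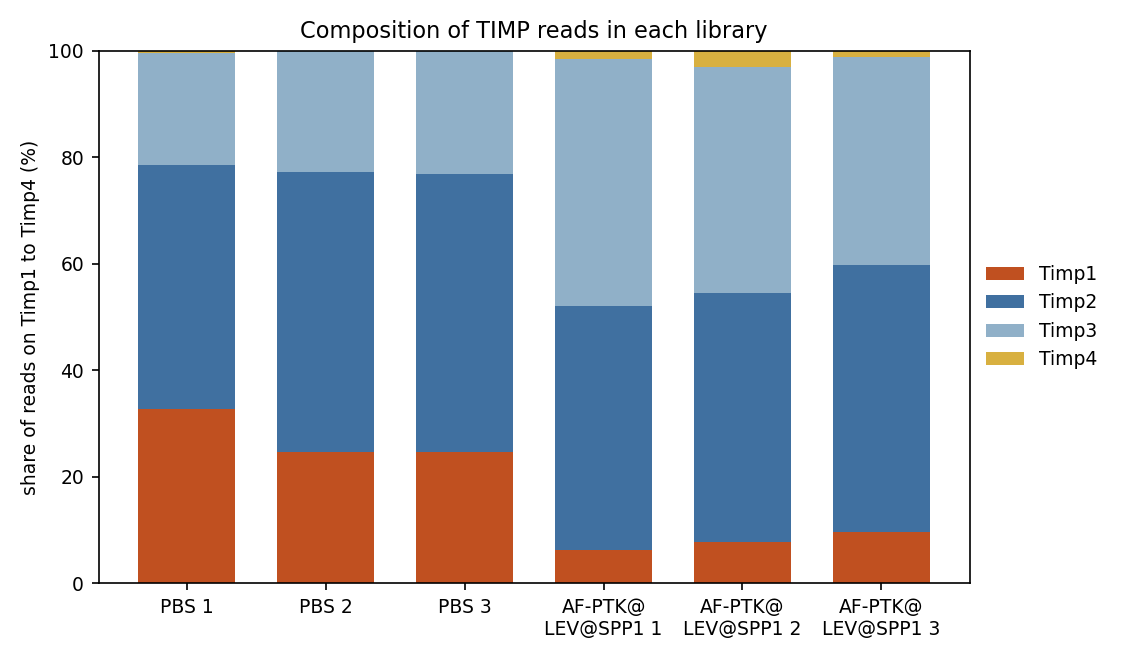
Share of the reads on Timp1 to Timp4 (vertical axis, percent) that each gene took in each of the 6 libraries, with 1 stacked bar per library. The Timp1 part is 24.6% to 32.7% in PBS and 6.22% to 9.63% in the AF-PTK@LEV@SPP1-labelled libraries.

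The proteinases that these inhibitors bind were read from lists of their families, and the secreted MMPs were mostly lower in the AF-PTK@LEV@SPP1-labelled libraries. Of 11 secreted MMPs tested 6 were called, each lower, and the median log2 fold change was -2.14, against 0.05 over all genes tested. Mmp12, the elastase of macrophages, had 478, 282 and 294 normalized CPM in PBS and 2.82, 3.56 and 4.39 in the AF-PTK@LEV@SPP1-labelled libraries (log2 fold change -6.74, edgeR's adjusted p = 0.00863). Mmp3 (stromelysin 1), with 920, 1738 and 1784 in PBS and 89.7, 97.4 and 77.9 in the other group, differed by a log2 fold change of -3.93 (edgeR's adjusted p = 0.0194). The log2 fold changes of Mmp19 and of the collagenase Mmp13 were -3.13 and -2.92 (adjusted p = 0.0306 and 0.0196 from edgeR). Mmp8, the collagenase of neutrophils, was at 77.6, 9.91 and 8.30 in PBS and 26.0, 237 and 249 in the AF-PTK@LEV@SPP1-labelled libraries, so that the groups overlapped, and Mmp23 overlapped too.

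Among 6 membrane-type MMPs tested, the collagenase Mmp14 was called, with 783, 1422 and 1418 normalized CPM in PBS against 222, 186 and 181 (log2 fold change -2.50, edgeR's adjusted p = 0.0260). The list's median log2 fold change was 0.04, and Mmp15 and Mmp16 were not called (0.39 and -0.13). Of 19 ADAMTS proteinases tested 5 were called, each lower, with a median of -0.34. They were Adamts4, an aggrecanase (log2 fold change -2.97), Adamts7 (-2.52), Adamts1 (-2.19), Adamts12 (-2.01) and the aggrecanase Adamts5 (-1.62), with adjusted p from edgeR of 0.0316, 0.0246, 0.0381, 0.0281 and 0.0367. Adamts2, which trims procollagen, and Adamts6 were not called (-0.24 and 0.67). Of 8 ADAM sheddases tested Adam12 was called lower (log2 fold change -1.86, edgeR's adjusted p = 0.0427), and the median was -0.59. This call depends on the tool, since limma-voom called 0 of the 8 (edgeR had 4 lower and 1 higher at an unadjusted p under 0.05) and DESeq2 3 lower and 1 higher. Adam17, a sheddase that Timp3 inhibits, had a log2 fold change of -0.79 and Adam9 one of -0.63, neither called (adjusted p = 0.100 and 0.0839 from edgeR).

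Because inhibitor and proteinase were both lower for several pairs, reads of a proteinase per read of an inhibitor were set side by side in each library, as a description without a test. Mmp13 had 12.2, 8.31 and 8.20 reads per Timp1 read in PBS and 8.65, 15.2 and 7.92 in the AF-PTK@LEV@SPP1-labelled libraries. These overlapped, so the lower level of Timp1 went with a lower level of Mmp13 of about the same size. Mmp3 had 1.83, 3.16 and 3.21 reads per Timp1 read in PBS, above the 1.24, 1.74 and 0.964 in the other group. For Mmp9 the order was the opposite, with 2.24, 1.52 and 1.52 reads per Timp1 read in PBS and 4.15, 6.20 and 3.55 in the AF-PTK@LEV@SPP1-labelled libraries. Against Timp2, reads of its partner Mmp14 were 1.11, 1.21 and 1.21 per Timp2 read in PBS and 0.417, 0.548 and 0.432 in the other group. Mmp2, which is activated with the help of Timp2 and Mmp14, had 1.55, 2.07 and 2.08 reads per Timp2 read in PBS and 0.731, 0.803 and 0.857 in the AF-PTK@LEV@SPP1-labelled libraries. Against Timp1, Mmp2 had 2.18, 4.44 and 4.39 reads per Timp1 read in PBS and 5.38, 4.86 and 4.46 in the other group. The groups were apart here only by 4.44 against 4.46, which is nearly a tie, so no order is drawn from them. Mmp14 per Timp1 read overlapped, at 1.56, 2.58 and 2.55 in PBS and 3.07, 3.32 and 2.24 in the other group. Of these 7 ratios, Mmp13 and Mmp14 per Timp1 read overlapped between the groups and the other 5 did not. Among these 5, Mmp2 per Timp1 read was nearly tied between the groups. How often ratios of other genes separate the groups was not computed, while 41.9% of single genes tested did so. Ratios of Mmp3, Mmp9 and Mmp13 to Timp1 were planned, and those with Mmp2 and Mmp14 were not in the plan.

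Proteins that bind TIMPs or Reck form a list that shares Mmp2, Mmp9 and Mmp14 with the lists above, and 4 of the 12 tested were called, each lower, and the list's median was -0.39 on the log2 scale, also with Wnt7b at its bound. Lower calls were 3 by limma-voom, with the robust fit and at a minimum count of 50, and 5 by DESeq2. Of the 4, Wnt7b (adjusted p = 0.0480 from edgeR) is the call not counted above. Mmp2 had a log2 fold change of -2.39 and Mmp9, the other gelatinase, one of -1.66 (adjusted p = 0.0444 and 0.0260 from edgeR), and Mmp14 is given above. Wnt7b, a Wnt ligand whose signal in brain vessels needs Reck, had 1.59, 1.35 and 1.34 normalized CPM in PBS and 0 reads in each AF-PTK@LEV@SPP1-labelled library, which is at least 8.12-fold lower measured against 3 counts per library. Wnt7a had 0 reads in all 6 libraries. Lrp1, a receptor that clears TIMPs and A2m from the matrix, and Itgb1 overlapped between the groups (log2 fold changes -0.26 and -0.51). Among 6 tested relatives and the receptor of A2m, edgeR called 0, with 3 genes at an unadjusted p under 0.05 and 2 called by DESeq2. The abundant one of them beside Lrp1, Cd109, had 257, 211 and 214 normalized CPM in PBS and 852, 426 and 593 in the AF-PTK@LEV@SPP1-labelled libraries (log2 fold change 1.40, edgeR's adjusted p = 0.0867).

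Genes listed as other extracellular protease inhibitors moved in both directions. Of 19 tested, 4 were called lower and 2 higher, with a median log2 fold change of 0.67. Listing follows gene families, and inhibition of a proteinase by each product was not tested. DESeq2 called 5 lower and 6 higher. Slpi, an inhibitor of neutrophil elastase, had 663, 1025 and 1006 normalized CPM in PBS and 4.53, 11.3 and 18.2 in the AF-PTK@LEV@SPP1-labelled libraries (log2 fold change -6.22, edgeR's adjusted p = 0.0221). Tfpi2, an inhibitor of plasmin, had a log2 fold change of -3.11, Serpine2 (protease nexin 1) one of -1.58 and Serping1, the C1 inhibitor, one of -1.21 (adjusted p = 0.0119, 0.0345 and 0.0393 from edgeR). The 2 called higher were Spock2 (testican 2), with 3.54, 3.41 and 2.69 normalized CPM in PBS against 19.4, 16.7 and 17.4, and Itih5, with 37.2, 40.5 and 42.3 against 113, 97.1 and 108. Their log2 fold changes were 2.43 and 1.42 (adjusted p = 0.0152 and 0.0196 from edgeR). These 2 calls are not read as a rise of protease inhibition. Cst3 (cystatin C) and Serpinf1, abundant genes of the list, were not called (0.67 and 0.07). Cst3 had 1394, 611 and 597 normalized CPM in PBS and 1503, 1732 and 1559 in the other group, without overlap. Leaving out 1 library at a time, its log2 fold change ranged from 0.61 to 1.39.

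**Figure D3:**
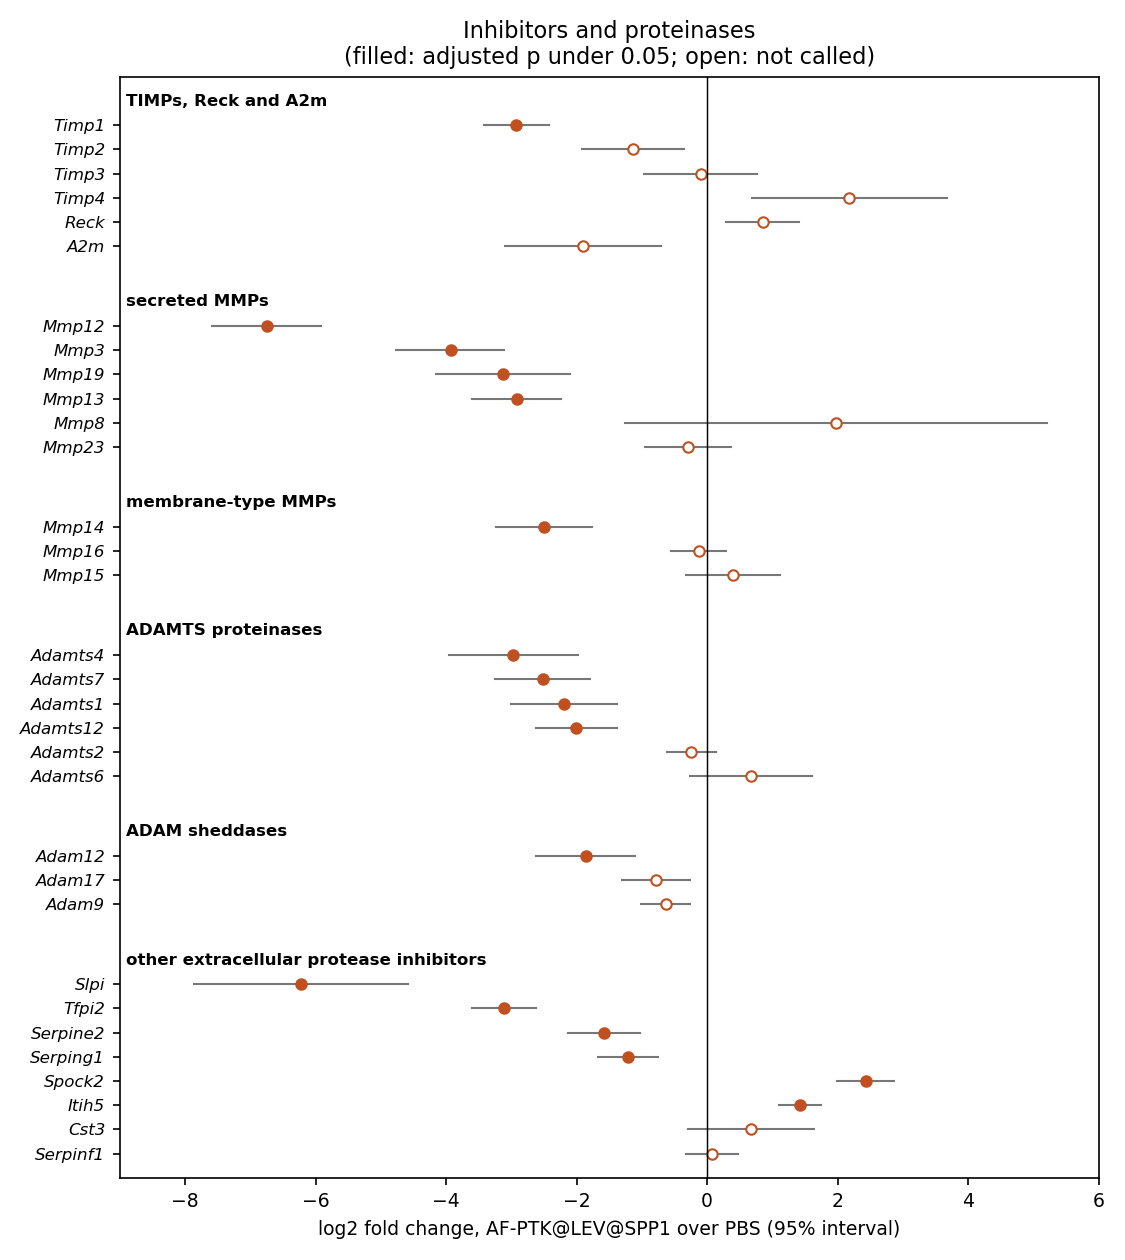
Log2 fold change of the AF-PTK@LEV@SPP1-labelled libraries over PBS (horizontal axis) with its 95% interval from edgeR for the 6 inhibitors and for genes named from the lists of proteinases and other inhibitors, filled where called and open where not. Timp1 at -2.93 is the filled point among the 6 inhibitors, and the called proteinases plotted here, which leave out Mmp2, Mmp9 and Adamts5, lie between -6.74 for Mmp12 and -1.86 for Adam12.

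Timp1 and A2m are classical targets of cytokines of the interleukin 6 family, which signal through gp130 (Il6st). A list of genes of this route and of acute-phase genes was therefore read too. Of 17 tested 5 were called, each lower in the AF-PTK@LEV@SPP1-labelled libraries, and the median log2 fold change was -0.99. On the same samples limma-voom called 3, each lower, and DESeq2 9 lower and 1 higher. The ligand Lif had 19.4, 53.8 and 48.1 normalized CPM in PBS and 2.59, 2.11 and 1.31 in the other group (log2 fold change -4.14, edgeR's adjusted p = 0.0281). Il6 was at 8.42, 18.4 and 16.5 in PBS and 0.118, 0.362 and 0.456 in the AF-PTK@LEV@SPP1-labelled libraries (log2 fold change -5.36, edgeR's adjusted p = 0.0230). Socs3 (-2.95), the feedback inhibitor of the route, the transcription factor Cebpd (-2.06) and the receptor Osmr (-1.74) were also called (adjusted p = 0.0119, 0.0230 and 0.0339 from edgeR). The shared receptor Il6st and Stat3 were not called, at -0.61 and -0.56 on the log2 scale (edgeR's adjusted p = 0.0885 and 0.0794), and Fga, a fibrinogen chain, had 0 reads in all libraries. At an unadjusted p under 0.05 edgeR had 9 of these genes lower and 2 higher. Of the latter, Lifr, the receptor of Lif, had 43.3, 11.8 and 13.6 normalized CPM in PBS and 71.7, 106 and 67.8 in the other group, without overlap (log2 fold change 1.54, edgeR's adjusted p = 0.171). PBS replicate 1 lay well above the other PBS libraries, and leaving out 1 library at a time the value ranged from 1.32 to 2.67. The acute-phase genes Orm1, Hp, Lcn2, Crp and Saa4 were not called. Their log2 fold changes were -3.61, -0.91, -1.22, -0.08 and 0.12 (adjusted p = 0.0807, 0.285, 0.568, 0.944 and 0.754 from edgeR). The ligand Osm was not called either (-1.46, edgeR's adjusted p = 0.232). The part of this route in the levels of Timp1 and A2m was not tested.

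The genes whose pattern was most like that of each inhibitor were found as the 3 with the smallest root mean square distance in log2 CPM, centred on each gene's mean, over the 5 distinct samples and 10060 genes. For Timp1 these were Socs3, Lrrc17 and Sod2, at distances of 0.12, 0.14 and 0.16, and their log2 fold changes were -2.95, -2.73 and -3.14. Timp2 lay next to Ifnlr1, Lmna and Igf2r (0.03, 0.03 and 0.08), and Timp3 next to Hoxd8, Cspg4 and Plcd1 (0.03, 0.05 and 0.07). The nearest genes to Timp4 were Sfrp5, Trarg1 and Tshr, at larger distances of 0.19, 0.21 and 0.24. Reck was nearest to Mpp7, Mmgt2 and Car11 (0.05, 0.06 and 0.08). A2m had no close neighbour by this measure, as its nearest genes Msr1, Rhou and Cthrc1 lay at 0.33, 0.34 and 0.36.

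Markers of the cell types that a disc sample can hold were read as whole lists, since several moved with the inhibitors. In whole tissue, fewer cells of a type and less RNA per cell cannot be told apart. Markers of annulus fibrosus and tendon (8 of 8 tested, most abundant Col1a1) summed to 55545, 79808 and 80698 normalized CPM in PBS and 115097, 81624 and 97093 in the AF-PTK@LEV@SPP1-labelled libraries. Cartilage markers (8 of 8, most abundant Col2a1) summed to 23867, 34791 and 34614 in PBS and 40782, 29124 and 45131 in the other group. The sums come mostly from collagen genes (Col1a1 and Col1a2, and Col2a1) and do not stand for each marker. By edgeR 0 of the 8 were called in either list. At an unadjusted p under 0.05, 1 annulus marker was higher and 1 lower, and 2 cartilage markers were lower, while DESeq2 called 2 annulus markers higher and 1 lower, and 1 cartilage marker lower. These matrix genes go against the sample records' account of sorted macrophages, whose 12 markers summed to 1391, 938 and 935 in PBS and 457, 776 and 621 in the AF-PTK@LEV@SPP1-labelled libraries. Of the macrophage markers 3 were called, each lower (Msr1, Cd14 and Cd68), and Mrc1 was the most abundant. Osteoclast markers had 5 of 6 called, each lower, and sums of 6491, 4224 and 4244 in PBS against 1121, 1094 and 768. Their most abundant gene was Ctsk, and Mmp9 stands in this list and in that of the secreted MMPs. T cell markers (most abundant Lck) summed to 15.9, 16.7 and 16.7 normalized CPM in PBS and 6.76, 9.35 and 9.97 in the other group, and 1 of 5 was called, Cd8a, lower (4 lower at an unadjusted p under 0.05, 3 by DESeq2). Endothelial markers (most abundant Pecam1) summed to 558, 673 and 658 in PBS and 416, 486 and 485 in the other group, with 0 of 7 called by edgeR, 4 lower at an unadjusted p under 0.05 and 3 by DESeq2. The part of these cells in the levels of Timp1, A2m and the MMPs was not tested.

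Adipocyte markers lay higher beside Timp4. Their sums were 514, 90.1 and 93.5 normalized CPM in PBS and 1098, 1790 and 821 in the AF-PTK@LEV@SPP1-labelled libraries, Fabp4 was the most abundant, and edgeR called 0 of 7, with 4 at an unadjusted p under 0.05 and 4 called by DESeq2. PBS replicate 1 was the PBS library with the highest level of both Timp4 and these markers. This is not particular to adipocyte markers. The same library was the highest in PBS for several other lists, among them nucleus pulposus, neutrophil, B cell, erythroid and osteoblast markers. Nucleus pulposus and notochord markers summed to 1679, 533 and 524 in PBS and 7146, 3970 and 3494 in the other group, with Car3 the most abundant, Noto at 0 reads, and 0 of 6 called by edgeR (5 at an unadjusted p under 0.05, 5 by DESeq2). Schwann cell markers, with Pmp22 the most abundant, summed to 462, 530 and 509 in PBS and 778, 1319 and 1850 in the AF-PTK@LEV@SPP1-labelled libraries (0 of 6 called by edgeR, 5 at an unadjusted p under 0.05, 5 by DESeq2). The part of these cell types in the levels of Timp4 and Reck was not tested.

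Some lists set 1 or 2 libraries of a group apart. Neutrophil markers summed to 1125, 184 and 174 normalized CPM in PBS and 289, 2868 and 3953 in the AF-PTK@LEV@SPP1-labelled libraries, with S100a9 the most abundant (0 of 8 called by edgeR, 0 at an unadjusted p under 0.05, 0 by DESeq2 or limma). Skeletal muscle markers (most abundant Acta1) reached 9641 in replicate 2 of the AF-PTK@LEV@SPP1-labelled group, against 931 to 2504 in the other 2 libraries of this group and 997 to 1273 in PBS, and erythroid markers (most abundant Slc4a1) were at 1487 in the same library and at 691 in replicate 3, against 93.7 in replicate 1 and 115, 39.3 and 37.1 in PBS. Of these 6 and 6 genes edgeR called 0, with 0 and 2 at an unadjusted p under 0.05, and DESeq2 called 0 and 3. Replicate 2 had the highest A2m and Timp4 levels and the lowest Timp1, Timp2 and Timp3 levels of its group. Without it the log2 fold changes were -2.33 for A2m, 1.96 for Timp4, -2.79 for Timp1 and -0.99 for Timp2. Hepatocyte markers, of the organ that makes most plasma A2m, were low, with sums of 1.59, 1.48 and 1.95 normalized CPM in PBS and 9.70, 2.72 and 5.24 in the other group. Serpina1, the most abundant, had 19, 14 and 17 reads in PBS and 140, 36 and 58 in the other group. Of the 6 markers it alone had enough reads for the test, and edgeR did not call it (log2 fold change 2.22, adjusted p = 0.129, unadjusted p = 0.0197), while DESeq2 and edgeR with the 6 libraries kept did. Albumin (Alb) had 0 reads in each PBS library and 2, 0 and 24 in the other group, and Fgb and Ttr had at most 3 in any library. Of the other lists, B cell markers (most abundant Cd79a) summed to 42.5, 4.95 and 3.54 normalized CPM in PBS and 21.9, 57.1 and 89.4 in the other group, and osteoblast markers (most abundant Ibsp) to 4588, 1825 and 1824 against 2155, 3117 and 1800. Mural and smooth muscle markers (most abundant Acta2) summed to 633, 731 and 734 in PBS and 1597, 768 and 726 in the other group, where replicate 1 stands apart, the library with the highest Timp3. In each of these 3 lists edgeR called 0 genes, with 0 at an unadjusted p under 0.05 and 0 by DESeq2 or limma. The part of these cells in the levels of the inhibitors was not tested.

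Most of the inhibitor genes lie within other genes in the deposited annotation, and the use of strand and the handling of shared reads in the counting are not given in the sources used here. Timp1, Timp3 and Timp4 lie inside Syn1, Syn3 and Syn2, genes of the synapsin family on the opposite strand. Syn1 was counted with 18, 16 and 20 reads in PBS and 15, 11 and 12 in the AF-PTK@LEV@SPP1-labelled libraries, beside 930 to 9764 reads of Timp1. Syn3 had 22 to 64 reads and Syn2 at most 5 in any library. Timp2 lies within the annotated span of Cant1 on the same strand, which had 594, 448 and 479 reads in PBS and 522, 439 and 497 in the other group, so reads in shared sequence could have been left out or assigned to either gene. The counts of Timp1, Timp2, Timp3 and Timp4 are uncertain to that extent. Reck overlaps an unnamed gene with at most 2 reads, and A2m overlaps none.

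The 250 bases before the start of transcription were compared for the members with an entry among the RefSeq promoter sequences of build GRCr8, which 5 of the 6 have (Timp1, Timp2, Timp3, Timp4 and Reck). Both strands were searched for TGANTCA (the AP-1 element), TGAGTAA (a variant of this element, which no match of TGANTCA can also be), GGGCGG (the GC box), TTCNNNGAA (a STAT element) and TATAAA (the TATA box). The variant TGAGTAA was found in Timp1 and in none of the other 4, 108 bases before the start, and 2.38% of all 33469 windows hold it. GGGCGG was found in Timp1, Timp2, Timp3 and Reck and in 30.5% of all windows. None of the 5 holds TGANTCA (6.34% of all windows do), TTCNNNGAA (7.67%) or TATAAA (12.9%). The windows of Timp1 and Timp4 are shown because these genes had the largest differences in each direction. Timp1 is at chrX:3771123-3771372 and Timp4 at chr4:149985205-149985454, both on the minus strand of GRCr8 and written 5′ to 3′, with TGAGTAA in capitals. The Timp4 window holds none of the 5 patterns, and its GC content of 50.8% is close to the median of all windows, 51.2%, while that of Timp1 is 61.2%. A match describes these letters and not a site that is bound.
Timp1: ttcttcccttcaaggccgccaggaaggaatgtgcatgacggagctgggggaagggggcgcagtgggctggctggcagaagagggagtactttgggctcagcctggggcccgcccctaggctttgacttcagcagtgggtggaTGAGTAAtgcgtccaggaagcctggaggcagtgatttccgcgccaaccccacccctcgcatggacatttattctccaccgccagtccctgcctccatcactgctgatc
Timp4: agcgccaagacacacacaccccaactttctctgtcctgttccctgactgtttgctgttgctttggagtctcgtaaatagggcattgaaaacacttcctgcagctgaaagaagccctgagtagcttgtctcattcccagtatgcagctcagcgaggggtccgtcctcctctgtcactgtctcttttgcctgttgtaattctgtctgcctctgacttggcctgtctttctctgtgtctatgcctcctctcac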

How the data were processed

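Whole disc RNA was read in 6 libraries, 3 per group. The authors deposited raw counts, 1 whole number of reads per Ensembl rat gene and library, without normalization. The submitters' processing notes name FastQC, Trimmomatic, HISAT2, featureCounts and DESeq2, with no versions, and a mouse build (mm10) that cannot apply to rat genes. Columns were matched to samples by group name and number, IVD being read as the PBS group. After PBS replicates 2 and 3 were summed, edgeR 4.0.16 under R 4.3.3 was run on the counts of all genes (trimmed mean of M-values, filterByExpr with a minimum count of 10, quasi-likelihood test, common biological coefficient of variation 0.302). Scripts were tested on simulated data. Alternatives were DESeq2 1.42.0, limma-voom (limma 3.58.1), other normalizations, filters and call rules, a robust fit, the 6 libraries kept, the replicate number as a block, and each library or the PBS pair left out. The members and lists were chosen with earlier results of these data known. Named from each list were the called genes with the largest log2 fold change, at most 4 per direction, and the 2 most abundant not called; from marker lists, the most abundant gene and defining genes at 0. Adamts5, Osmr, Lifr, Osm, Orm1, Hp, Lcn2, Crp, Saa4, Col1a2, Cd14, Cd68, Cd8a, Alb, Fgb and Ttr were named after their values were seen. Log2 CPM used a prior count of 2, and neighbours in pattern had a mean of at least 3 on this scale.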

Additional observations from a re-analysis of the deposited data

How the results depend on the processing

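The direction of Timp1, Timp2, Timp4, Reck and A2m was the same in each alternative run, and the other normalizations, filters, limma-voom and the robust fit changed no call among the 6 inhibitors. With the 6 libraries kept, 5 inhibitors and 2727 genes were called (1233 higher, 1494 lower), and with DESeq2 5 inhibitors and 2572 genes (1132 higher, 1440 lower). In these 2 settings Timp2 passed with log2 fold changes of -1.24 and -1.16, Timp4 with 2.41 and 2.15, Reck with 0.77 and 0.83 and A2m with -1.89 and -1.92. Leaving out 1 library at a time, genes called by edgeR ranged from 0 to 566, higher from 0 to 170 and lower from 0 to 396, and inhibitors called from 0 to 1. The counts of 0 came without replicate 2 or without replicate 3 of the AF-PTK@LEV@SPP1-labelled group, where 3109 and 2699 genes had an unadjusted p under 0.05. No other tool was run there. Without PBS replicate 1, the summed pair alone stood for PBS and was assumed to vary like the other group, and 280 genes were called. Timp1 ranged from -3.04 to -2.79 on the log2 scale and lost its call without replicate 2 or 3 of the AF-PTK@LEV@SPP1-labelled group. Timp3, never called, ranged from -0.43 to 0.05 and turned its sign without replicate 2 (0.05) and replicate 3 (0.02). With the PBS pair left out, chosen after seeing the data, PBS replicate 1 stood alone and was assumed to vary like the other group. There edgeR called 3 genes (0 higher, 3 lower; 2572 at an unadjusted p under 0.05) and 0 inhibitors, with log2 fold changes of -2.85 for Timp1, 0.28 for Timp3 and -0.07 for Spp1. The cause of these differences was not tested.

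With the 6 libraries kept and the replicate number as a replicate block, 741 genes were called (307 higher, 434 lower), against 2727 with the 6 libraries and no block, and Timp1 alone of the inhibitors (-2.96 on the log2 scale, edgeR's adjusted p = 0.0226), where 5 were called without the block. Of the TIMP and Reck partners 2 were then called lower, without Wnt7b and Mmp2 (adjusted p = 0.0923 and 0.0595 from edgeR). In the same setting 1 of these partners, Efemp1, was called higher (log2 fold change 1.13, edgeR's adjusted p = 0.0451). Libraries with the same number had correlations of -0.326, -0.282 and -0.076 between their deviations from the group means. No library correlated best with its own number. As PBS replicates 2 and 3 were near-identical, their deviations were nearly the same. These values therefore cannot tell whether libraries of the same number were paired. Reads per gene length could not be computed, as the table gives no lengths. The depth limits Timp4 most, with 27 reads in PBS replicate 2.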
